A study of Mus musculus with 8 samples.

Results

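Left ventricles taken 30 days after ligation of the left anterior descending (LAD) coronary artery were compared with untreated left ventricles in C57BL/6 mice, a common inbred strain, and in MRL/MpJ mice, which are known to regrow tissue in punched ears. The comparison holds 4 of the 8 arrays of the series, chosen by their labels: 1 array each for untreated C57BL/6, untreated MRL/MpJ, C57BL/6 at day 30 and MRL/MpJ at day 30. The other 4 arrays hold the same strains at days 3 and 60 and enter the statistical model. All mice were male and 2 to 4 months old, total RNA was measured on Affymetrix mouse arrays, and the labels do not say whether an array holds 1 animal or several. The control hearts were untreated, not sham-operated, so tying the artery cannot be told apart from opening the chest. Each group is 1 array, so no spread between mice of a group could be measured. The p-values of the time comparisons rest on how far the strain difference varied over the 4 times, moderated across genes. Those of the strain test at day 30 rest on the other 3 times.

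Tying the artery infarcts the wall that it supplies. In the weeks that follow, dead muscle is cleared by macrophages and replaced by a collagen scar made by fibroblasts, while the surviving muscle is under higher load. Loaded ventricular muscle is known to switch part of its genes back to a fetal pattern, with the natriuretic peptides and the slow myosin heavy chain as its best known members.

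The 4 arrays were alike in scaling, with a trimmed mean signal between 247.2 and 248.4 over the 8 arrays, but the C57BL/6 day 30 array stood apart. Its correlation with the other 7 arrays over 8195 genes lay between 0.844 and 0.877, while the 21 pairs without it lay between 0.884 and 0.948. Its brightest probe set reached 75193, where no other array passed 38118, and its median signal of 139.5 was above the range of the others, 112.8 to 129.55. For this reason the change is given in each strain, and a gene is counted as agreeing only where both strains moved the same way. Markers of ventricular muscle were among the brightest on every array: Myl2, the ventricular regulatory light chain, had 24551 and 23390 in untreated C57BL/6 and MRL/MpJ, and Tnnt2, cardiac troponin T, had 17426 and 20993.

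A gene's change is the difference of log2(signal + 28.6) between day 30 and untreated, so the folds of dim genes are understated. Of 8195 genes, 110 were at least 2-fold higher in both strains, 1.34% of those measured, and 44 were at least 2-fold lower in both, 0.537%. Taken alone, the C57BL/6 pair had 648 genes at least 2-fold higher (7.91%) and 569 lower (6.94%). The MRL/MpJ pair had 253 higher (3.09%) and 206 lower (2.51%). Of the 110 genes, 55 were under the filter signal of 121 in both untreated arrays, 4 passed the filter through the day 30 arrays alone, and 53 reached a signal of 500 in at least 1 of the 4 arrays. The genes that were lower were dimmer: 9 of 44 reached 500, and 13 were at or under the offset in a day 30 array.

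**Figure D1:**
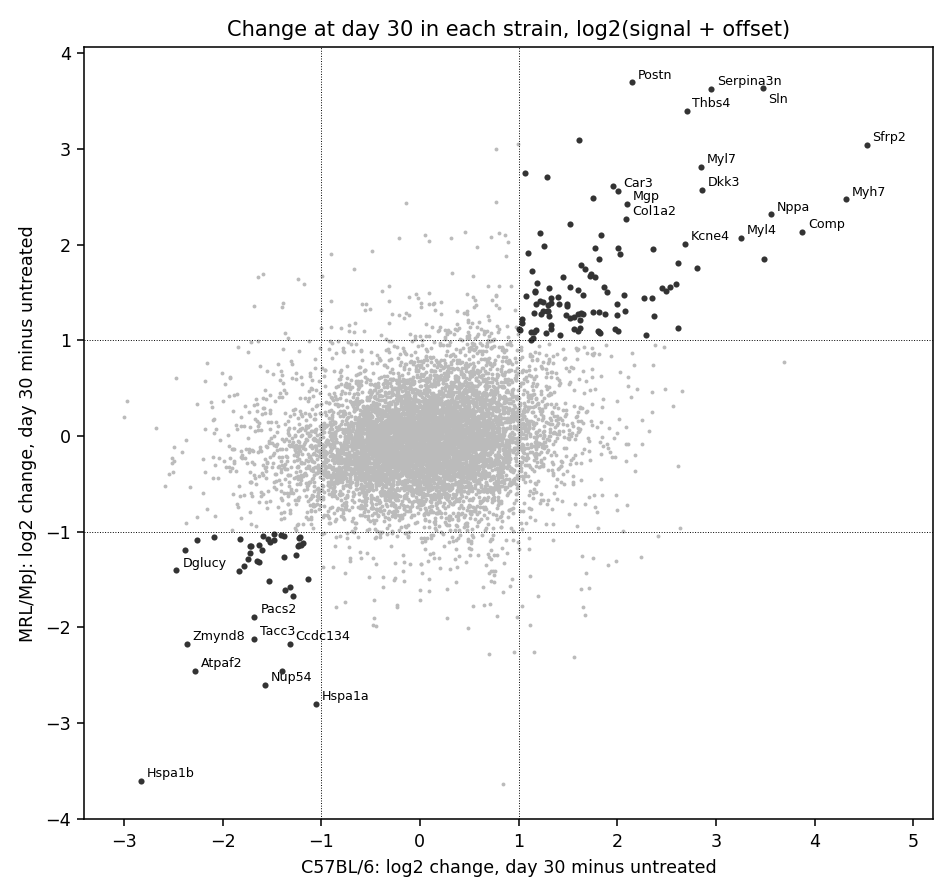
Log2 change at day 30 in C57BL/6 (horizontal axis) and in MRL/MpJ (vertical axis), each point 1 of 8195 genes and each change 1 array minus 1 array. Dark points are the 110 genes at least 2-fold higher and the 44 at least 2-fold lower in both strains, the dotted lines mark a 2-fold change, and the cloud is wider along the C57BL/6 axis.

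Serpina3n, an acute-phase inhibitor of serine proteases, was the 1 gene that rose past the threshold in limma. The untreated arrays gave 31.1 (C57BL/6) and 34.8 (MRL/MpJ), and the day 30 arrays 434 and 754.6. It stood higher in both strains, by a log2 of 2.95 in C57BL/6 and 3.63 in MRL/MpJ, with no overlap between the untreated and day 30 arrays. The estimate over both strains was 3.29 (SE 0.27, 2 arrays against 2, limma adjusted p = 0.0194, 0.0122% of 8195 genes called). Its adjusted p in limma was between 0.00112 and 0.512 over the alternatives, and it missed the threshold with no filter on low signal and without either untreated or either day 60 array. Hp, haptoglobin, another acute-phase gene, had 13.5 and 29.3 in untreated hearts and 119.2 and 180.7 at day 30. The promoter of Serpina3n, the 250 bases before its 1 start site, held no match to TTCNNNGAA, the core of the site bound by STAT factors. That motif is its own reverse complement and is present in 7.02% of all promoters in the table.

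Without adjustment, 473 genes were higher (5.77%) and 429 lower (5.23%) at p under 0.05 in limma. These shares are the background for the gene groups below. In bulk tissue, a change in the number of cells of a type cannot be told apart from a change in RNA per cell.

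The fetal and stress programme had 13 of 18 kept genes higher in both strains, where 26.9% of all genes were, and 6 at least 2-fold higher in both, with a median log2 change of 0.81 (0.64 in C57BL/6 and 0.93 in MRL/MpJ), against -0.01 over all genes. Nppa, atrial natriuretic peptide, had 3455.2 and 5780.6 in the untreated arrays of C57BL/6 and MRL/MpJ and 41056 and 28877 at day 30. Both day 30 signals were above both untreated ones, and the log2 change was 2.94 (SE 0.52, limma adjusted p = 0.131). Myh7, the slow myosin heavy chain, went from 338.6 to 7273.3 in C57BL/6 and from 1011.1 to 5735 in MRL/MpJ, a log2 change of 3.39 (SE 0.63, limma adjusted p = 0.141). In MRL/MpJ Myh7 was at 6739.2 on day 3 already, while in C57BL/6 it was at 1248.1. Ccn2, a connective tissue growth factor gene, had 646.7 and 712.6 untreated and 3438 and 2843.6 at day 30. Fstl1, a secreted follistatin-like protein gene, had 387.5 and 425.7 untreated and 987.6 and 2931.7 at day 30. Acta1, skeletal actin, moved apart between the strains, with a log2 change of -0.61 in C57BL/6 and 0.72 in MRL/MpJ.

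Atrial muscle genes stood high in both day 30 arrays, but Sln and Myl7 were under the offset or the filter signal on some of the other arrays. Sln, sarcolipin, an inhibitor of the calcium pump in atrial muscle, had 251.4 and 234.6 untreated and 3078.4 and 3254.2 at day 30. On the other arrays it ran from 6.1 in MRL/MpJ at day 3 to 2932.2 in MRL/MpJ at day 60, with 858.4 and 6.7 in C57BL/6. Myl7, the atrial regulatory light chain, had 442.3 and 532.5 untreated and 3371.6 and 3899.3 at day 30, but 97.6 in MRL/MpJ at day 3 and 11.9 in C57BL/6 at day 60. Myl4, the atrial essential light chain, had 483 and 759.1 untreated and 4852.8 and 3278.6 at day 30, with 247.5 in MRL/MpJ at day 3 and 153.6 in C57BL/6 at day 60. The limma SE was accordingly wide: 2.02 around a log2 change of 3.56 for Sln, 1.73 around 2.83 for Myl7 and 1.36 around 2.66 for Myl4, with adjusted p between 0.488 and 0.541. The single other probe set of Sln gave a log2 change of -0.42.

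The atrial and conduction list, with 15 measured and 12 kept genes, had 5 genes at least 2-fold higher in both strains. Of these, Nppa, Myl4 and Myl7 are also counted among the 6 of the fetal list and Dkk3 in the Wnt list, which leaves Sln. The summed signal of the 15 genes was 6798.4 and 9568.3 in untreated C57BL/6 and MRL/MpJ and 55728.9 and 42252.9 at day 30. Without Nppa, which ventricular muscle also expresses under load, the sum over 14 genes was 3343.2 and 3787.7 untreated and 14672.9 and 13376 at day 30. It was 5216.4 and 2619.2 on day 3 and 2323 and 15351.1 on day 60. Sln, Myl4 and Myl7, already described, made up most of this sum at day 30. Of the 12 kept genes, 7 were higher in both strains and 2, Nr2f2 and Kcnj3, lower in both. Bmp10, made by atrial muscle, was between 113.6 and 196.3 in the 4 untreated and day 30 arrays, with log2 changes of 0.13 and 0.24. Whether the amount of atrial tissue in the samples differed was not tested.

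**Figure D2:**
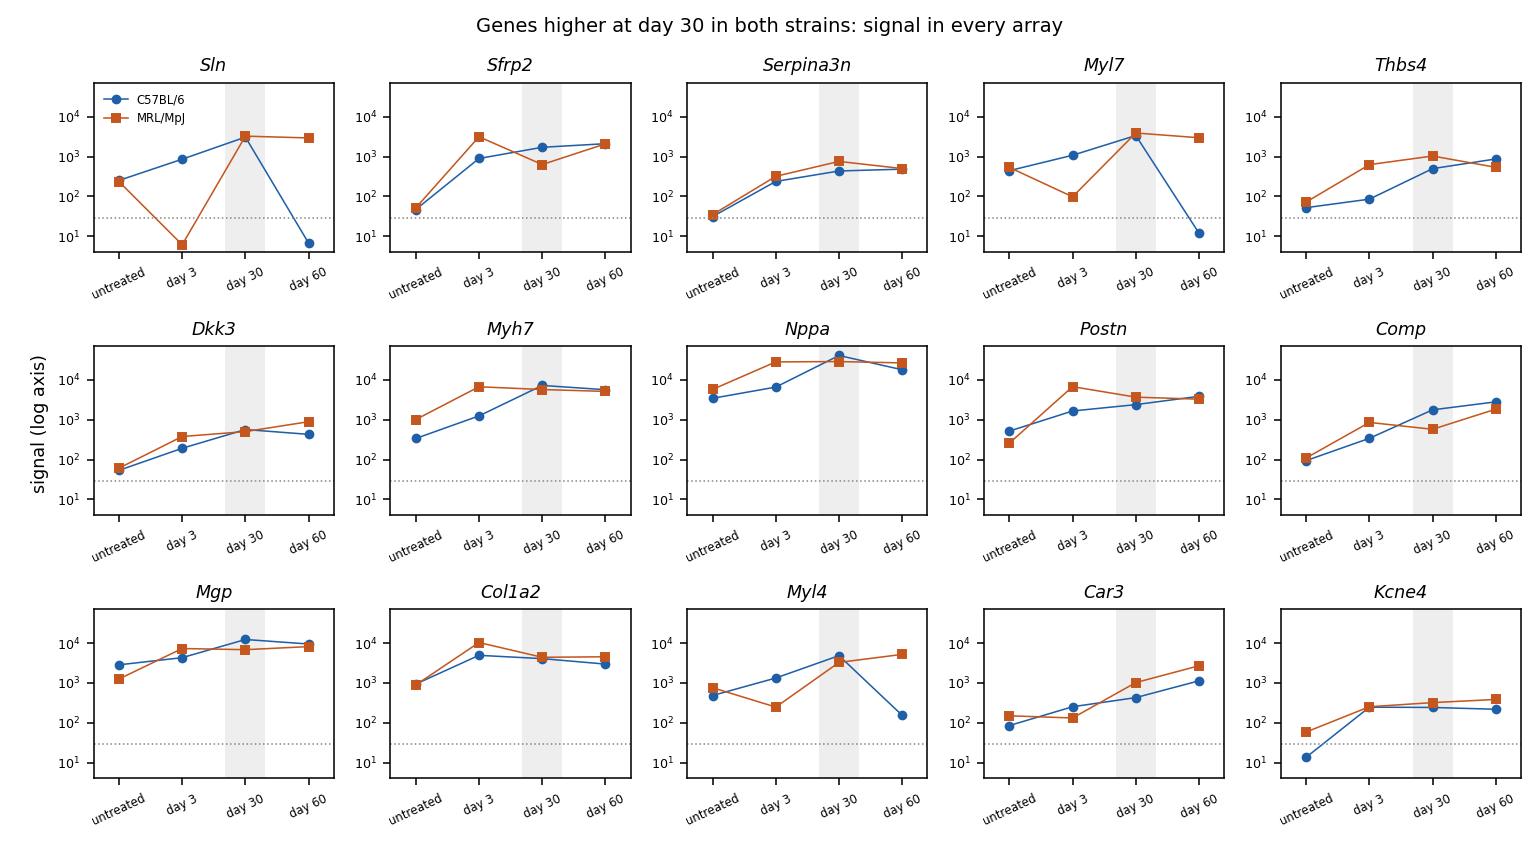
Signal (log axis) in each of the 8 arrays for the 15 genes with the largest change shared by both strains, C57BL/6 as circles and MRL/MpJ as squares, 1 array per point, with day 30 shaded and the offset of 28.6 as a dotted line. Sln, Myl7 and Myl4 dip in the MRL/MpJ day 3 and C57BL/6 day 60 arrays, while Serpina3n, Dkk3 and Kcne4 are above untreated at all 3 times in both strains.

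Fibrillar collagen and its processing enzymes, the scaffold of a scar, had 7 of 20 kept genes at least 2-fold higher in both strains and 9 higher and 1 lower at an unadjusted p under 0.05 in limma. Col1a2, a chain of type I collagen, had 935.7 and 889.7 in untreated C57BL/6 and MRL/MpJ and 4079.7 and 4403.5 at day 30. Its log2 change was 2.09 in C57BL/6 and 2.27 in MRL/MpJ, 2.18 over both (SE 0.32, limma adjusted p = 0.124). Col1a1, the other type I chain, had 646.3 and 485.5 untreated and 2587.1 and 3102.6 at day 30, and Col3a1, type III collagen, had 1858.3 and 2676.6 untreated and 6863 and 7954.6 at day 30. Lox, the enzyme that crosslinks collagen, had 194.6 and 128.9 untreated and 611.4 and 434.8 at day 30. These 4 genes had the largest shared changes of the list and were named for that. Their day 3 signals in MRL/MpJ were higher still, 10356 for Col1a2 and 16636 for Col3a1. In C57BL/6 the day 3 signals of Col1a2 (4936.5), Col3a1 (8957.2) and Col1a1 (3515.8) were also above day 30, while that of Lox (509.9) was not. Col6a2, of the beaded type VI collagen, was the 1 gene of 20 in the basement membrane and other collagens list that was at least 2-fold higher in both strains.

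Matricellular proteins, which sit in the matrix and signal to cells, had 13 of 15 kept genes higher in both strains and 6 at least 2-fold higher in both, Ccn2 of the fetal list among them, with a median log2 change of 1.05. Postn, periostin of healing tissue, had 519.2 and 259.1 in untreated C57BL/6 and MRL/MpJ and 2397 and 3694.4 at day 30. Thbs4, thrombospondin 4, had 52.1 and 72 untreated and 496.7 and 1030.5 at day 30. Comp, the cartilage oligomeric matrix protein, had 94.3 and 109.7 untreated and 1773.9 and 576.1 at day 30. These genes differed in which strain stood higher: the log2 change of Postn was 2.15 in C57BL/6 and 3.69 in MRL/MpJ, that of Comp 3.87 and 2.13. Over both strains the changes were 2.92 for Postn (SE 0.60), 3.05 for Thbs4 (SE 0.63) and 3.00 for Comp (SE 0.57), with limma adjusted p of 0.172, 0.177 and 0.153. Without the C57BL/6 day 30 array the list's median was 0.64.

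Small proteoglycans and elastic fibre genes were higher in both strains for 16 of 18 kept genes and lower in both for 0, where 26.9% of all genes were higher in both. At an unadjusted p under 0.05 in limma 11 of 18 were higher. Ltbp2, which binds elastic microfibrils, had 127.3 and 55.3 in untreated C57BL/6 and MRL/MpJ and 597.1 and 298.9 at day 30. Fmod, fibromodulin, which orders collagen fibrils, had 134.7 and 60.2 untreated and 758.2 and 212.3 at day 30, and Bgn, biglycan, had 2818.5 and 2142.1 untreated and 7595.7 and 4475.5 at day 30. For these 3 genes the C57BL/6 day 30 array was the highest of the 4. Mgp, matrix Gla protein, an inhibitor of calcification, had 2851.6 and 1255.5 untreated and 12333 and 6845 at day 30, a log2 change of 2.26 (SE 0.44, limma adjusted p = 0.155).

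Proteases of the matrix and their inhibitors had 5 of 21 kept genes at least 2-fold higher in both strains, and 10 were higher at an unadjusted p under 0.05 in limma. Timp1, an inhibitor of matrix metalloproteinases, had 130.8 and 75.4 in untreated C57BL/6 and MRL/MpJ and 459.8 and 855.4 at day 30, a log2 change of 2.35 (SE 0.42, limma adjusted p = 0.131). Serping1, the C1 inhibitor, had 903.4 and 719.8 untreated and 2799.9 and 2126.9 at day 30, with nearly equal log2 changes of 1.60 and 1.53. Serpinf1, a secreted serpin known as PEDF, had 443.3 and 398.6 untreated and 1294.4 and 1067.5 at day 30. Ctsk, cathepsin K, which cuts collagen, had 50.6 and 105.5 untreated and 250.4 and 255.9 at day 30.

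Among secreted signals, the Wnt modulators Sfrp2 and Dkk3 were in the 15 genes with the largest shared increase. Sfrp2, which binds Wnt ligands, had 46.8 and 51.3 in untreated C57BL/6 and MRL/MpJ and 1707.7 and 629.7 at day 30, a log2 change of 3.78 (SE 0.62, limma adjusted p = 0.131). Dkk3, a secreted member of the Dickkopf family, had 53.7 and 60.9 untreated and 568.1 and 504.2 at day 30, close in both strains, with a change of 2.72 (SE 0.34, limma adjusted p = 0.0817). Frzb, a further secreted Wnt-binding protein, had changes of 1.21 and 0.94. Of the 14 kept Wnt genes, 2 were at least 2-fold higher in both strains. Axin2, a feedback target of Wnt signalling, had 114.2 and 84.9 untreated and 155.8 and 121.1 at day 30. Of 24 TGF-beta and BMP genes kept, 1 was at least 2-fold higher in both: Inhbb, an activin subunit, with changes of 1.14 and 1.72. Tgfb2 had changes of 0.96 and 1.32. Of 10 IGF genes, Igfbp6, an IGF-binding protein, was at least 2-fold higher in both, with 192.6 and 266.4 untreated and 588.7 and 678.9 at day 30.

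Fibroblast markers were higher in both strains for 15 of 15 kept genes, and 5 of them were at least 2-fold higher in both. Mfap5 and Fbln1 are also counted in the proteoglycan and elastic fibre list. Pdgfra, Ddr2 and Tcf21 rose less in MRL/MpJ, from 184.6, 148.8 and 186.2 untreated to 249.4, 158.6 and 262.3 at day 30. In C57BL/6 these 3 went from 179.6, 171.1 and 145.7 to 274.4, 401.3 and 408.7. Vim, vimentin of the cytoskeleton of mesenchymal cells, had 2164.4 and 2809.9 in untreated C57BL/6 and MRL/MpJ and 6973.9 and 9494.4 at day 30. Its changes of 1.68 and 1.75 were nearly equal, 1.71 over both (SE 0.25, limma adjusted p = 0.124). Dpt, dermatopontin of the matrix, had 995.3 and 1358.5 untreated and 3118.3 and 3187.7 at day 30, and Pi16, a marker of a resting fibroblast state, had 454.9 and 340.7 untreated and 1492.9 and 861.9 at day 30. The summed signal of the 16 measured markers was 12822.6 and 14054.4 untreated and 26664.4 and 28433.3 at day 30. Most of this sum came from Vim and Gsn, the latter with 6018.1 and 6739.4 untreated and 9092 and 8924.7 at day 30. Of 12 smooth muscle genes, Cnn1, calponin, was the 1 at least 2-fold higher in both, from 32 and 28.8 to 124 and 127.3. In both strains 6 of the 12 were higher and 3 lower, with a median log2 change of 0.29 (0.29 in C57BL/6 and 0.44 in MRL/MpJ). Myh11, the myosin that defines smooth muscle, was among those lower in both, with changes of -0.59 and -0.17.

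Of 19 endothelial genes, 5 were higher and 6 lower in both strains, shares near the 26.9% and 29.6% of all genes, and the median log2 change was -0.04. Flt1, a VEGF receptor, had 587.8 and 572.2 in untreated C57BL/6 and MRL/MpJ and 282.9 and 203.8 at day 30, and Cdh5, the cadherin of vessel walls, had 820.1 and 656.4 untreated and 412.5 and 359.1 at day 30. Aqp1, the water channel of capillaries, had 3184.7 and 2593.6 untreated and 1426.4 and 1479.2 at day 30. All 3 were lower in both strains, but they were named for being among the largest shared changes of the list. In addition, 1 of the 2 other probe sets of Flt1 gave the opposite sign, with a log2 change of 0.13. Plvap, of the diaphragms of fenestrated vessels, was higher, from 45.8 and 85.1 to 234 and 177.1, and so was Pecam1, the general endothelial marker, with changes of 0.48 and 0.25.

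Macrophage and monocyte genes were higher in both strains for 20 of 25 kept genes, with a median log2 change of 0.76 (0.49 in C57BL/6 and 0.96 in MRL/MpJ) and 12 higher at an unadjusted p under 0.05 in limma. Lgals3, galectin 3 of activated macrophages, was the 1 at least 2-fold higher in both, from 66.8 and 64 untreated to 524.9 and 243.2 at day 30. The defining markers were present in every array: Cd68 had 180.9 and 165.8 untreated and 360.3 and 301.6 at day 30, and C1qa had 870.5 and 729 untreated and 1478.8 and 1489.3 at day 30. The summed signal of the 30 measured genes was 9741.1 and 6733.5 untreated, 14428.1 and 12763.1 at day 30. The complement and acute phase list had 9 of 12 kept genes higher in both strains and 3 at least 2-fold higher: Serpina3n, Hp and Serping1, the last already counted among the protease inhibitors. It also shares C1qa and C1qb with the macrophage list. C1ra, a protease of the classical pathway, had changes of 1.89 and 0.95. Of 16 chemokine and cytokine genes, 0 were at least 2-fold higher in both strains: Ccl8 had changes of 1.74 and 0.92, and Il33, a cytokine released by damaged cells, 0.77 and 1.46. Interferon-stimulated genes had a median of 0.09, and 2 of 14, Ifi35 and Ifit3, were at least 2-fold higher in both.

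**Figure D3:**
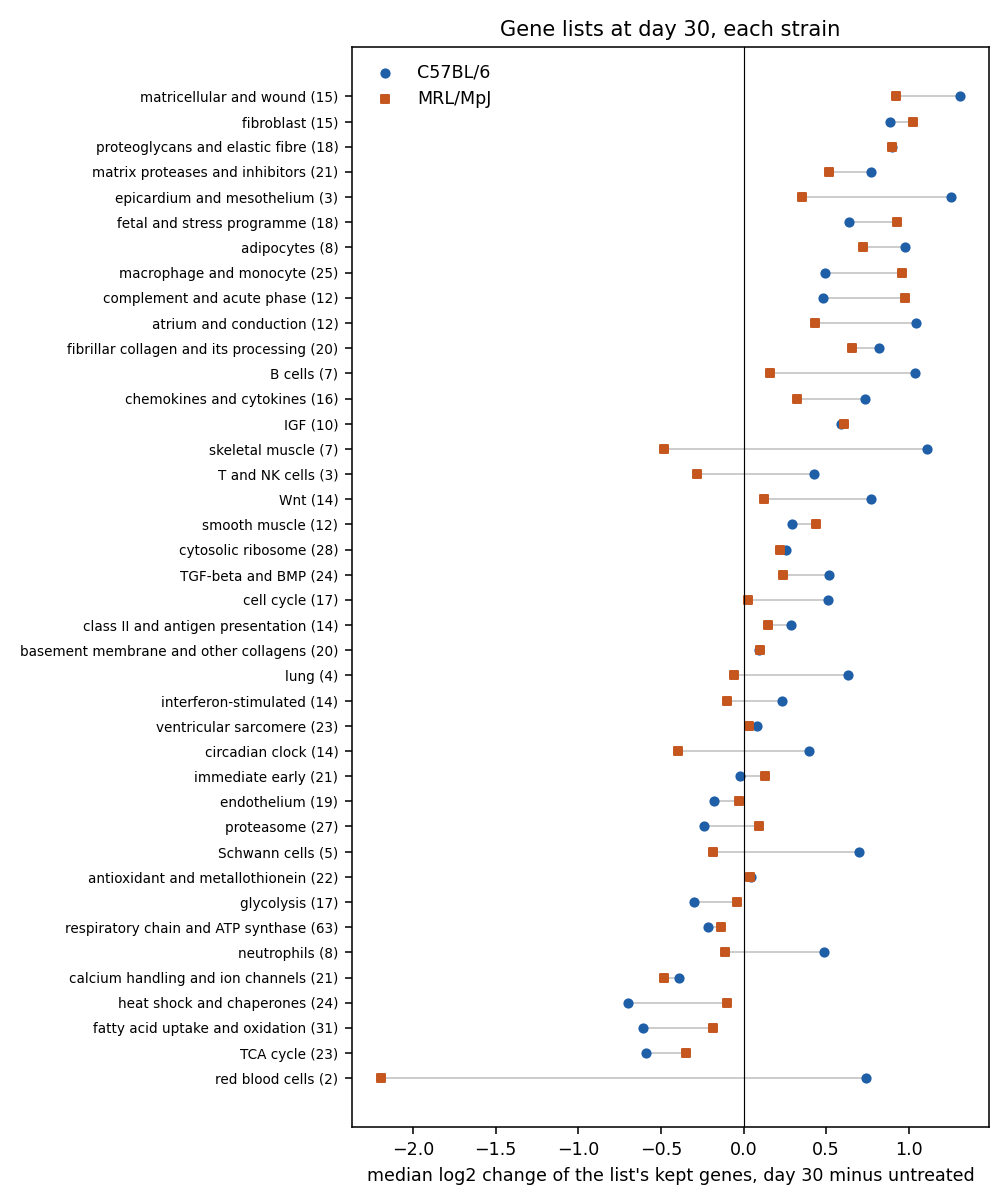
Median log2 change at day 30 of the kept genes of each of 40 gene lists, C57BL/6 as circles and MRL/MpJ as squares, 1 array against 1, with the number of kept genes in brackets. Matrix, fibroblast and macrophage lists lie above 0 in both strains, and TCA cycle and fatty acid lists below 0 in both. Several lists lie on opposite sides of 0 in the strains. Among them are skeletal muscle and red blood cells, of 7 and 2 kept genes, circadian clock and proteasome.

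Several heat shock genes, which encode chaperones that refold proteins, stood lower in both strains, but the list median fell mainly in C57BL/6. Of 24 kept genes, 12 were lower in both strains, where 29.6% of all genes were, and 3 were at least 2-fold lower in both. At an unadjusted p under 0.05 in limma 7 were lower and 0 higher. Hspa1b, inducible Hsp70, had 773.4 and 1894 in untreated C57BL/6 and MRL/MpJ and 84.8 and 129.7 at day 30. It was the gene with the largest shared decrease, with changes of -2.82 and -3.60, -3.21 over both (SE 0.33, limma adjusted p = 0.0586), and its 2 other probe sets gave -2.70 and -2.57. Hspa1a, the neighbouring copy, had 322.7 and 770.5 untreated and 140.4 and 86.1 at day 30. Hsph1, of the Hsp110 family, had 730.2 and 806 untreated and 236.3 and 357.5 at day 30, and Dnajb1, a co-chaperone of Hsp70, had 643.2 and 751.9 untreated and 250.7 and 370.8 at day 30. On day 3 Hspa1b was at 175.2 and 175.3 and on day 60 at 226.4 and 478, below both untreated signals. Hsp90aa1, the inducible Hsp90, moved apart, with changes of -1.34 and 0.03. The median over the list was -0.70 in C57BL/6 and -0.10 in MRL/MpJ.

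The promoters of these genes are shown because their members share a known control element, the heat shock element bound by HSF1. The genes were chosen after their values were seen. The 250 bases before the start site are from RefSeq (GRCm38.p6), written 5′ to 3′ on the gene's strand. Hsph1 is shown at the downstream one of its 2 start sites. Matches to GAANNTTC or TTCNNGAA, each its own reverse complement, are in capitals.
Hspa1b, chr17:34959239-34959488, minus strand: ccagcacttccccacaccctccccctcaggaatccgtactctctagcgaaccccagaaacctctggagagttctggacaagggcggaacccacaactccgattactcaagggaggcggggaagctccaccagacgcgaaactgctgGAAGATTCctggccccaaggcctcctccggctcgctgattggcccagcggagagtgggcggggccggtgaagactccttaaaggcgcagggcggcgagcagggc
Hspa1a, chr17:34972157-34972406, minus strand: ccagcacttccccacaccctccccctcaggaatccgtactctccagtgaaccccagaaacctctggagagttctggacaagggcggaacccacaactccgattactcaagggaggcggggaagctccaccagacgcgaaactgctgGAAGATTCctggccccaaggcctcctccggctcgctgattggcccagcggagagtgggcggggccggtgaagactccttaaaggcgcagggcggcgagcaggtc
Hsph1, chr5:149636316-149636565, minus strand: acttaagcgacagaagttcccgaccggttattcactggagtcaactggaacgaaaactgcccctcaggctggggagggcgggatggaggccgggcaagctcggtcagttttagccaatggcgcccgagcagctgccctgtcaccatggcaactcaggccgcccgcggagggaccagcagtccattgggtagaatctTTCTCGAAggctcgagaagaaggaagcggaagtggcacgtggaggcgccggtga
Hspa1a and Hspa1b differed at 3 of these 250 bases, so the promoters are 98.8% identical, and the genes themselves are near-identical copies whose probe sets may each detect both. In both copies the match began 104 bases before the start. Of 7 genes looked for, 6 were in the table and 4 had a match at 1 or more start sites (the fourth was Dnaja1, at 1 of 3 start sites), while Dnajb1 and Bag3 had none in this window. Either motif was present in 12.8% of the 32851 start-site entries of the table, so a match by itself is common.

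**Figure D4:**
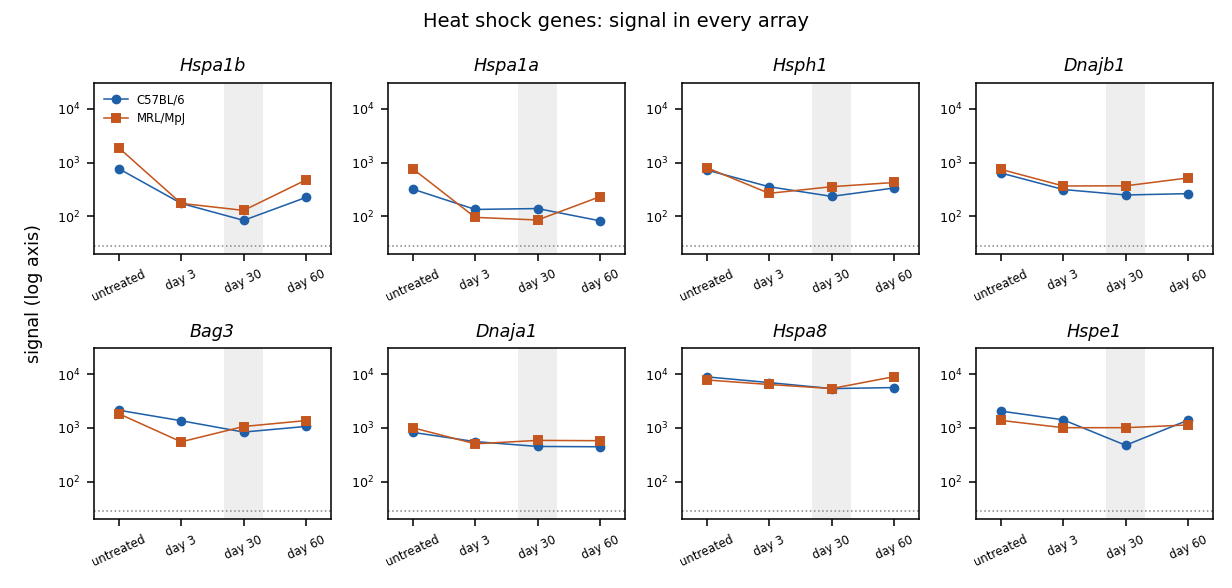
Signal (log axis) of 8 heat shock genes in each of the 8 arrays, C57BL/6 as circles and MRL/MpJ as squares, 1 array per point, with day 30 shaded and the offset of 28.6 as a dotted line. Hspa1b and Hspa1a go 1894 to 129.7 and from 770.5 to 86.1 between untreated and day 30 in MRL/MpJ.

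Genes of energy metabolism were slightly lower. Of 23 TCA cycle genes, 16 were lower in both strains and 0 higher in both, with a median log2 change of -0.49 (-0.59 in C57BL/6 and -0.35 in MRL/MpJ). Dld, the shared subunit of the pyruvate and oxoglutarate dehydrogenase complexes, had 1191.7 and 1449.4 in untreated C57BL/6 and MRL/MpJ and 617.9 and 785.6 at day 30. Of 31 fatty acid genes 21 were lower in both, with a median of -0.42. Cpt2, a carnitine palmitoyltransferase of mitochondria, had 1964.4 and 1724.5 untreated and 914.1 and 1044.8 at day 30, although its other probe set gave 0.10. Of 63 respiratory chain genes 33 were lower in both, with a median of -0.18. In these 3 lists 0 genes were 2-fold lower in both strains. Without the C57BL/6 day 30 array the medians were -0.16 for the TCA cycle, 0.03 for fatty acid oxidation and 0.03 for the respiratory chain. The MRL/MpJ pair's own medians were -0.19 for fatty acid oxidation and -0.14 for the respiratory chain, against -0.06 over all genes.

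Sarcomere genes of the ventricle had a median of 0.07, and the brightest stood highest in the C57BL/6 day 30 array. Myl2 went from 24551 to 75193 in C57BL/6 and from 23390 to 35348 in MRL/MpJ, and Actc1, cardiac actin, from 20040 to 47012 and from 24445 to 33900. Tnni3, cardiac troponin I, had changes of -0.12 and -0.02. Of 21 genes for calcium handling and ion channels, 9 were lower in both strains and 2 higher. Trdn, triadin of the calcium release complex, had 1571 and 1553.5 untreated and 575.7 and 875.9 at day 30, but 2 of its 5 other probe sets gave the opposite sign. Gja1, connexin 43 of the gap junctions, had 3646.5 and 5928.2 untreated and 1767.2 and 3794.5 at day 30, and its 5 other probe sets were lower too. Kcne4, a potassium channel subunit, went from 13.6 and 58.6 to 242.5 and 321, a log2 change of 2.34 (SE 0.30, limma adjusted p = 0.0817).

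Of 8 kept adipocyte genes, 5 were higher in both strains and 1, Car3, at least 2-fold higher in both. Car3, carbonic anhydrase 3, abundant in fat and slow muscle, had 85.2 and 149.6 untreated and 428.3 and 1021.5 at day 30. Adipoq, adiponectin, which defines fat cells, had 10.5 and 18.3 untreated, 49.2 and 361.3 at day 30, and 347.4 and 972.5 at day 60. The summed signal of the 13 measured adipocyte genes was 10191.9 and 8939.4 untreated and 9324.6 and 12964.1 at day 30. Most of this sum came from Fabp4 and Dgat2. Fabp4 had 4957.4 and 5840.9 untreated and 4504.8 and 8032.6 at day 30, and Dgat2 had 3950.1 and 1722 untreated and 2059.4 and 1662.5 at day 30. Whether fat attached to the samples played a part was not tested.

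Beside the heat shock genes, the genes lower in both strains were mostly dim. Atpaf2, an assembly factor of ATP synthase, had 200.4 and 227.4 in untreated C57BL/6 and MRL/MpJ and 18.5 and 18 at day 30, and Zmynd8, a chromatin reader, had 258.3 and 210.4 untreated and 27.1 and 24.4 at day 30. Both day 30 signals were under the offset. On day 3 Zmynd8 was at 255.3 and 130.1 and on day 60 at 192.3 and 106, so the low signal was seen in the day 30 arrays alone. Nup54, of the nuclear pore, Ccdc134 and Pacs2 were also lower at day 30 than at any other time in both strains, and 1 of the 2 other probe sets of Nup54 gave the opposite sign. Il6ra, the interleukin 6 receptor, had 397.8 and 299.8 untreated and 132.8 and 31.1 at day 30, but its other probe set gave a log2 change of 0.35. Ces1d, a carboxylesterase, was the brightest of these genes, with 768 and 596.5 untreated and 246.8 and 189.9 at day 30, and its 2 other probe sets were lower too. In limma the adjusted p of Zmynd8 was 0.0817 (log2 change -2.27, SE 0.27) and that of Atpaf2 0.172 (-2.37, SE 0.49).

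**Figure D5:**
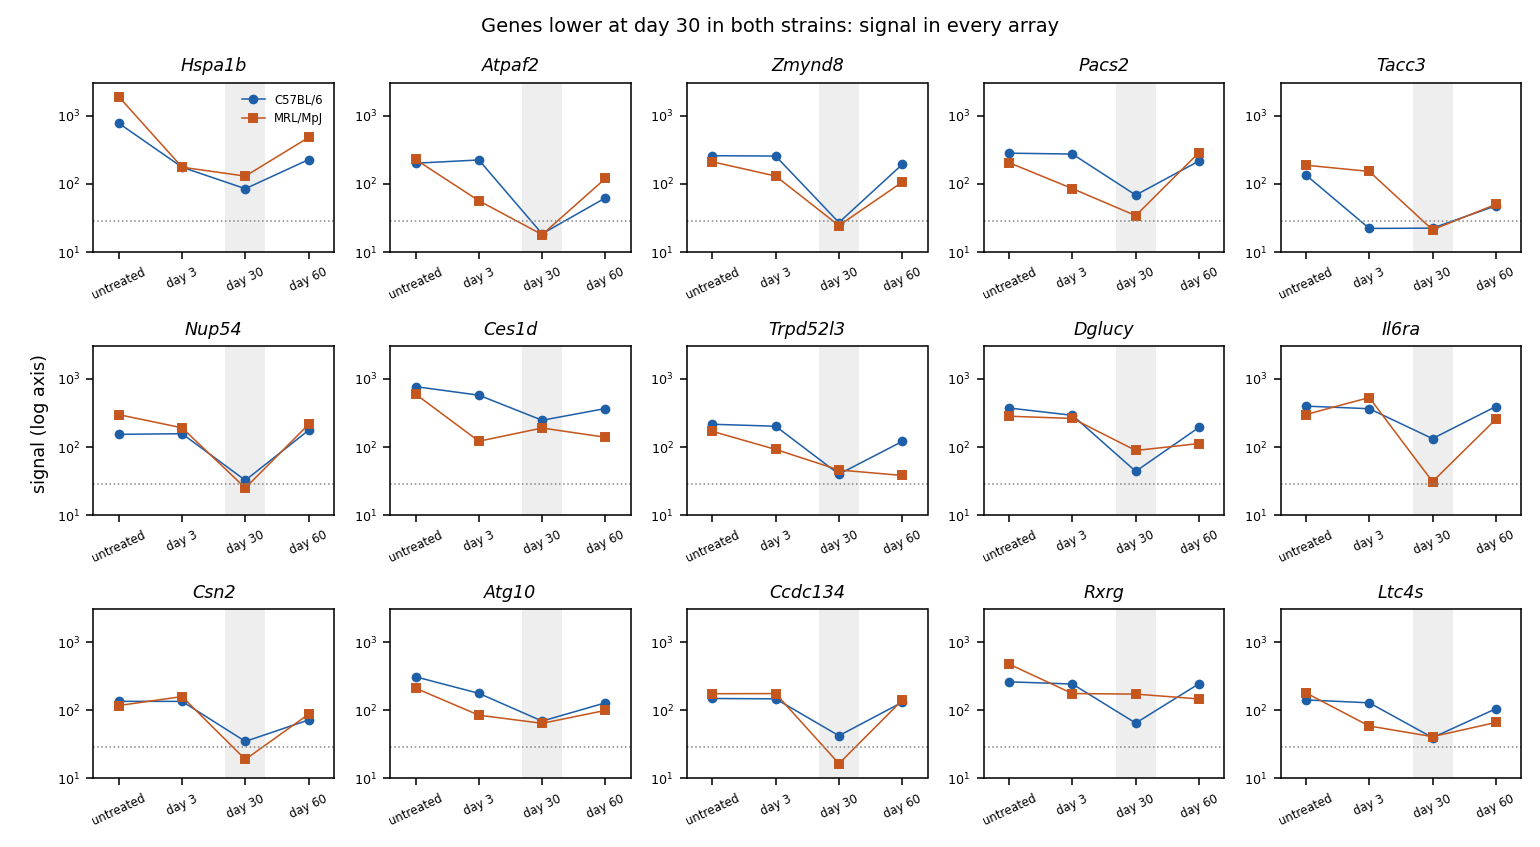
Signal (log axis) in each of the 8 arrays for the 15 genes with the largest decrease shared by both strains, C57BL/6 as circles and MRL/MpJ as squares, 1 array per point, with day 30 shaded and the offset of 28.6 as a dotted line. Atpaf2 and Zmynd8 are under the offset in both day 30 arrays and above it at the other times.

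The strains moved apart for some genes. Of 8195 genes, 20 were at least 2-fold higher in C57BL/6 and at least 2-fold lower in MRL/MpJ (0.244%), and 11 the reverse (0.134%). Alas2, the heme synthesis enzyme of red cell precursors, had the largest gap: 255.5 untreated and 480.8 at day 30 in C57BL/6, 504.9 and 14.2 in MRL/MpJ. The last signal is under the offset, and in MRL/MpJ Alas2 was also low on day 3 (32.5) and day 60 (71.4). Josd2 and Spns1 were low in the C57BL/6 day 30 array alone, Josd2 at 50.8 against 206.3 to 606 on the other arrays and Spns1 at 20.4 against 120 to 355.7. In limma, a test of whether the strain difference at day 30 departed from that of the other 3 pairs called 0 genes, while 1620 genes (19.8%) had an unadjusted p under 0.05. The adjusted p was 0.131 for Josd2 and 0.153 for Spns1.

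Against day 3, the early inflammatory phase, limma called 0 genes at day 30, and 470 (5.74%) had an unadjusted p under 0.05, 175 higher (2.14%) and 295 lower (3.6%). At least 2-fold changes in both strains were seen for 18 genes upward (0.22%) and 28 downward (0.342%). Gpnmb, expressed by macrophages that take up debris, had 162.2 and 376.2 on day 3 and 28.5 and 71.1 at day 30 in C57BL/6 and MRL/MpJ. Ppp1r12c, a regulatory subunit of myosin phosphatase, had 42 and 43.1 on day 3 and 314.7 and 206.1 at day 30. Both genes kept their order in both strains, with a limma log2 change of -1.88 (SE 0.34) for Gpnmb and 2.00 (SE 0.29) for Ppp1r12c.

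Between day 30 and day 60, 3 of the 5 genes with the largest shared increase were immunoglobulin genes, the products of B cells and plasma cells. Jchain, which joins antibody units, had 133.6 and 49.6 at day 30 and 628.6 and 569.3 at day 60, a log2 change of 2.48 (SE 0.29, limma adjusted p = 0.154). Ighm, the IgM heavy chain, had 1021.2 and 273.7 at day 30 and 4997.4 and 996.4 at day 60, while Iglv1, a light chain segment, had 75 and 26.1 at day 30 and 355.9 and 142 at day 60. Cd79a, which defines B cells, did not follow: it had 299.6 and 126.7 at day 30 and 144.2 and 91 at day 60. Arfgap3, of Golgi transport, had the smallest p, with 16.9 and 23.8 at day 30 and 228.1 and 230.8 at day 60, a log2 change of 2.40 (SE 0.23, limma adjusted p = 0.0695). It had 159 and 156.1 on day 3, so the low signal was that of the day 30 arrays. In limma 0 genes passed here and 653 (7.97%) had an unadjusted p under 0.05, 291 higher (3.55%) and 362 lower (4.42%). At least 2-fold changes in both strains numbered 28 upward (0.342%) and 37 downward (0.451%).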

How the data were processed

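Left ventricular RNA of 8 arrays, 1 for each of 2 strains and 4 times, was used as deposited. The authors deposited signal intensity on a linear scale for 22626 probe sets, with MAS5 named in the submitters' processing notes. Other steps are not given in the sources used here. The intensity values were kept as scaled by the authors. Probe sets were named through the platform table: 20380 had 1 symbol, 691 several and 1555 none. Before log2, 28.6 (the 20th percentile) was added to each signal. Each gene took its probe set with the highest mean, and genes at a signal of 121, the median, in at least 2 of 8 arrays were kept, 8195 of 12393. limma 3.58.1 in R 4.3.3 fitted time and strain (the block) over 8 arrays with 3 residual degrees of freedom, adjusted by Benjamini-Hochberg, threshold 0.05. Interaction terms had 2 residual degrees of freedom. The script was tested on simulated data. The number of arrays limits the precision.

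Members and the 40 gene lists were chosen with earlier results of these data known. Named are genes that passed, the 15 highest and 15 lowest by the smaller of both strains' changes, up to 4 genes per list and any that moved apart, the 10 largest strain gaps each way, and 5 each way for day 30 against day 3 and day 60 against day 30. Genes outside this rule, such as Tnni3, Bmp10, Axin2, Pecam1, Myh11, Cd68, C1qa and Cd79a, are defining markers or were chosen after their values were seen. Alternatives changed the offset, filter, normalization, probe set rule, prior, strain term and arrays.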

Additional observations from a re-analysis of the deposited data

Results flagged for a closer look

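Of the 20 genes with the largest gaps between the strains' changes at day 30, 13 moved at least 2-fold in opposite directions. The C57BL/6 change minus the MRL/MpJ change, in log2, was positive for Tlx2 (3.87), Slc17a9 (3.55), Capn5 (3.50), Nusap1 (3.46), Blm (3.43), Lrrc23 (3.42), Nr5a1 (3.30) and Cadm3 (3.29). It was negative for Pcyt2 (-3.30), Ptprcap (-3.28), Htra2 (-3.04), Tmem63a (-2.88) and Tmem176a (-2.77). Each change is 1 array against 1, so strain cannot be told apart from the single array, such as C57BL/6 day 30, which correlated least. The limma test of the strain difference at day 30 against that of the other pairs gave adjusted p between 0.131 and 0.264 for these 13 genes, so 0 passed. Tlx2, for example, had signals of 235 and 746.7 in untreated and day 30 C57BL/6 and 380.8 and 53.9 in MRL/MpJ.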

How the results depend on the processing

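The count of genes called by limma at day 30, 1 of 8195, was 8 with an offset of 100, 6 with the filter on the mean signal, 24 with an intensity trend (21 higher, 3 lower), 20 with the 4 arrays only (17 higher, 3 lower) and 0 with no filter, where 1176 genes had an unadjusted p under 0.05. It stayed 1 with an offset of 16, quantile normalization, median centring, the mean of probe sets, a robust prior and no strain term. Leaving out 1 array gave 0 to 186: 186 without MRL/MpJ day 30 (72 higher, 114 lower), 2 without either day 3 array, 1 without C57BL/6 day 30, and 0 without either untreated or either day 60 array. The 110 genes at least 2-fold higher in both strains became 53 with an offset of 100, and 253 in the MRL/MpJ pair alone, an alternative chosen after seeing the data. The 44 lower became 12 with an offset of 100, 27 with the filter on the mean signal, 27 with the mean of probe sets and 206 in the MRL/MpJ pair alone. The strain test called 5 genes with an intensity trend. Day 60 against day 30 called 1 gene with the filter on the mean signal, with the mean of probe sets and with no strain term, and 0 otherwise. Over 111 named genes, 2016 of 2093 values kept their direction and side of the threshold, 72 newly passed and 5 no longer passed, all 5 for Serpina3n. Of 760 list medians 103 moved beyond the spread, and 33 of 290 strain gaps did. The cause was not tested. No paired analysis was possible because the labels give no replicate numbers, other than pairing by strain, which is the block in the model and with the 4 arrays only. Signals near the offset limit the lower genes.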

Other observations

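Values outside the comparisons were given by a few other groups at day 30. Cytosolic ribosome genes were higher in both strains for 17 of 28 kept genes and lower in 1, with a median log2 change of 0.23 (0.26 in C57BL/6 and 0.22 in MRL/MpJ). Ier3, an early response gene, had 297.4 and 295 in untreated C57BL/6 and MRL/MpJ and 733.2 and 755.5 at day 30, and it was the 1 of 21 immediate early genes at least 2-fold higher in both strains. Skeletal muscle genes had medians of 1.11 in C57BL/6 and -0.48 in MRL/MpJ over 7 genes. Of these, 0 were higher and 2 lower in both strains, and 5 moved apart. Tnnt3 went from 36.1 to 145.8 in C57BL/6 and from 61.4 to 35.8 in MRL/MpJ. Mylpf went from 34.9 to 127.3 and from 38.7 to 32.1. The defining marker Myh4, which did not pass the filter, was at most 46.6 in the 4 untreated and day 30 arrays. Whether the amount of skeletal muscle in the samples differed was not tested.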
